A study of Homo sapiens with 6 samples.

Results

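The inhibitors of cyclin-dependent kinases (CDKs) that act in G1 of the cell cycle are encoded by 7 genes, the 3 CIP/KIP genes CDKN1A, CDKN1B and CDKN1C and the 4 INK4 genes CDKN2A, CDKN2B, CDKN2C and CDKN2D. They were taken as the listed members, and each was matched by gene symbol to the probe sets, the groups of probes that the array summarises into 1 value. Of the 7, 6 were measured, each by 1 probe set that is annotated to no other gene, among 18404 named genes on the array. CDKN2C was not analysed here. The samples were cultures of the established human cell line SNU-398, which derives from a hepatocellular carcinoma and was kept in RPMI medium with fetal bovine serum. In 3 cultures a short hairpin RNA (shRNA) targeted SALL4, a transcription factor with zinc fingers that is active in embryonic stem cells and in fetal liver, and 3 carried a scrambled shRNA. All 6 were the same cell line, 3 biological replicates in each group by the labels, and total RNA of each was hybridized to 1 Affymetrix array. The labels name 1 hairpin target and no rescue, so other effects of the hairpin and those of lower SALL4 cannot be told apart.

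CDK inhibitors hold cells in G1 by keeping CDKs from phosphorylating the retinoblastoma (RB) protein, which in its unphosphorylated state binds E2F transcription factors and silences their targets. CIP/KIP proteins bind whole cyclin-CDK complexes, mainly those of CDK2, whereas INK4 proteins bind CDK4 and CDK6 themselves and keep D-type cyclins off them. CDKN1A is a classical p53 target, CDKN1B protein is controlled largely by degradation, CDKN1C is an imprinted gene, and the CDKN2A and CDKN2B locus is often deleted or silenced in tumours. The comparison addressed here is whether transcripts of these genes differ between cells with the SALL4 shRNA and cells with the scrambled shRNA. In bulk RNA of a culture, fewer cells that express a transcript and less transcript per cell cannot be told apart.

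SALL4 had intensities of 120.7, 118.7 and 117.3 in SALL4 shRNA cultures, against 283.5, 264.2 and 335.4 in scrambled cultures. The groups did not overlap, and SALL4 fell to 40.6% of the scrambled level (limma adjusted p = 0.0108, log2 change -1.30 ± 0.18, SE, lower in 3 of 3 arrays). The intensities are linear and have a floor at 10, where 15.5% to 16.9% of the values of each array lie. Changes were tested with limma on log2 intensity over the 13325 genes whose log2 intensity averaged 5 or more (32 on the linear scale) over the 6 arrays. Of these genes 220 passed at an adjusted p under 0.05, or 1.65%, with 80 that rose (0.6%) and 140 that fell (1.05%). Without the filter 0 of 18404 genes passed limma (0%), while 2864 had an unadjusted p under 0.05 (15.6%). SALL4 shRNA replicate 2 (-23.6) and scrambled replicate 3 (-18) stood apart from the other 4 arrays (1.12 to 16.7) on the second principal component, which held 20.1% of the variance. Of the hepatocyte markers, ALB and AFP lay near the floor, at 10.62 to 17.76 in SALL4 shRNA cultures and 10.13 to 15.40 in scrambled cultures, whereas GPC3, a fetal liver proteoglycan, lay between 118.6 and 157.2 in SALL4 shRNA cultures and between 133.7 and 165.2 in scrambled cultures. KRT8 and APOA1 were at 0.64 ± 0.29 and -0.25 ± 0.19 (log2 difference ± SE). Limma called 0 of the 6 hepatocyte markers in the fit. An unadjusted p under 0.05 was seen for 1 of the 6, KRT8, against 16.8% of all genes tested. KRT8 was also the only 1 of the 6 with a positive change, with 5 negative and a median of -0.09. Of the 7 blood cell markers measured, PTPRC and LYZ were at the floor on all 6 arrays, CD3E, CD14 and HBB lay between 17.64 and 30.31 over the 6 arrays, and ITGAM and CD68 were in the fit, at 0.03 ± 0.21 and 0.40 ± 0.25 (log2 difference ± SE). CD68, a macrophage marker, had the highest level of these, from 99.02 to 190.6 in SALL4 shRNA cultures and from 95.89 to 128.8 in scrambled cultures. The 7 summed to 221 to 316 in SALL4 shRNA cultures and 209 to 242 in scrambled cultures. The endothelial marker ROBO4 was at 0.24 ± 0.22, and the cholangiocyte markers KRT7 and SOX9 were at -0.37 ± 0.21 and 0.34 ± 0.20 (log2 difference ± SE). EPCAM had the highest level of the cholangiocyte markers, from 802.8 to 1023 in SALL4 shRNA cultures and from 874.1 to 1138 in scrambled cultures. Its log2 difference was -0.10 ± 0.20 (SE). Limma called 0 of the 7 blood, endothelial and cholangiocyte markers in the fit, with 0 at an unadjusted p under 0.05.

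None of the 6 measured CDK inhibitor genes passed the test, and none was at the floor on any array. The lowest intensity of any member was 66.37, which is 6.64 times the floor, so no change below was cut off by the floor. That floor is the lowest deposited value and was not taken as a detection limit. The median intensity over all probe sets was 47.85 to 51.69 on the 6 arrays. Whether each member was detected above background was not tested. CDKN1A was higher and CDKN1B lower in all 3 SALL4 shRNA arrays than in any scrambled array, by amounts whose 95% intervals included 0. In the other 4 genes the groups overlapped. Thus groups were separate in 2 of the 6 members, and in 22.2% of all genes tested. Limma gave 0 of the 6 an unadjusted p under 0.05, against 16.8% of all genes, and adjusted p values from 0.342 to 0.928. In the fit without the filter 1 of the 6, CDKN1A, had an unadjusted limma p under 0.05 (adjusted p = 0.279). The share of all 18404 genes in that fit was 15.6%.

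**Figure D1:**
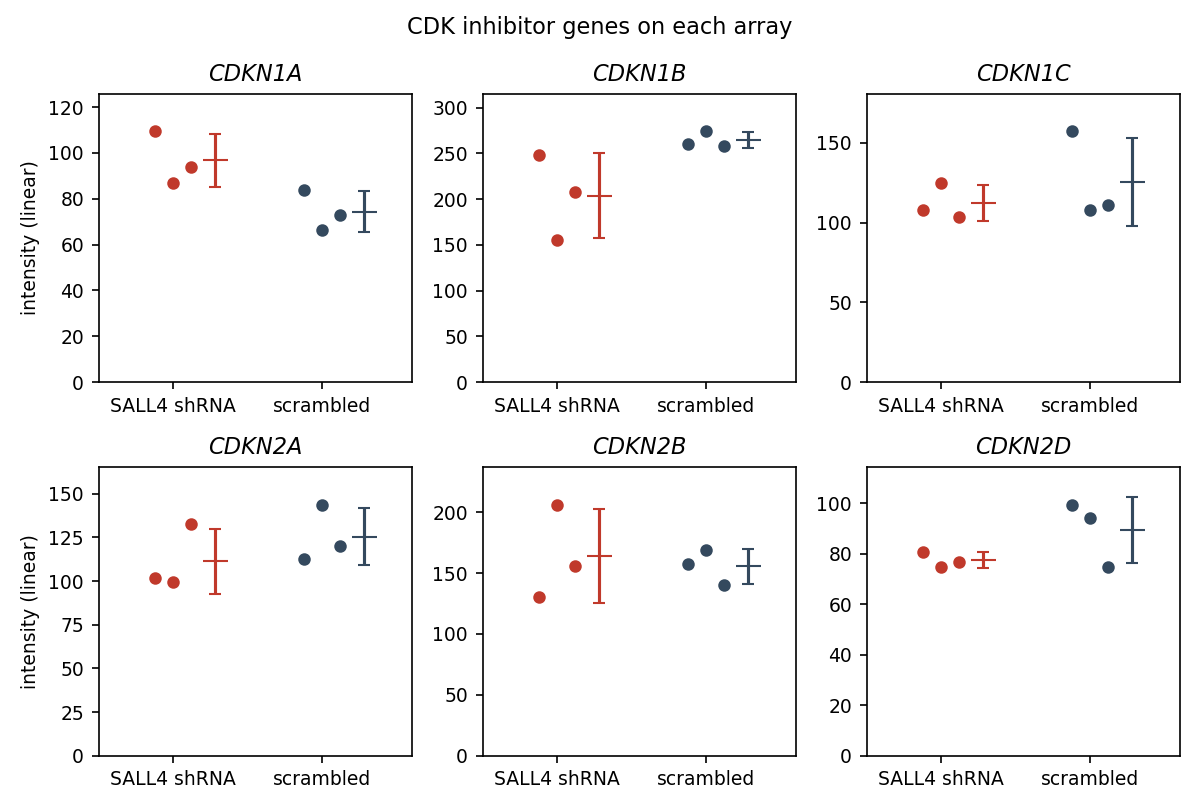
Linear intensity (y axis, from 0) of the 6 measured CDK inhibitor genes on each array, with SALL4 shRNA arrays in red on the left and scrambled arrays in dark blue on the right; bars beside the points give the mean and SD of 3 arrays. The groups are separate for CDKN1A (86.78 to 109.5 against 66.37 to 83.81) and CDKN1B (155.3 to 247.8 against 258.2 to 274.2) and overlap for the other 4 genes.

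Among the CIP/KIP genes, CDKN1A encodes p21, which inhibits CDK2 complexes and binds the replication clamp PCNA. Its promoter is shown with that of CDKN1B because these were the 2 members whose groups did not overlap, and they lay on opposite sides of 0. Sequences are those of RefSeq on GRCh38.p14, from 250 bases before to 50 bases after a transcription start, 5′ to 3′ on the strand of the gene. Capitals mark the GC box, GGGCGG on either strand, a motif that SP1 family factors bind.
CDKN1A promoter, chr6:36678464-36678763, plus strand: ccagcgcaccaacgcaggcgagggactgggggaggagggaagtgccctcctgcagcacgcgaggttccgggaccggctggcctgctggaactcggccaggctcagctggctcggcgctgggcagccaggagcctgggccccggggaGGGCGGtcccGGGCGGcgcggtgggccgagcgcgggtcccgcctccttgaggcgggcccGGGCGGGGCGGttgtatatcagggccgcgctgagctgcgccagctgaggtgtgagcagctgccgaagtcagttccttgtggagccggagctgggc
CDKN1B promoter, chr12:12717118-12717417, plus strand: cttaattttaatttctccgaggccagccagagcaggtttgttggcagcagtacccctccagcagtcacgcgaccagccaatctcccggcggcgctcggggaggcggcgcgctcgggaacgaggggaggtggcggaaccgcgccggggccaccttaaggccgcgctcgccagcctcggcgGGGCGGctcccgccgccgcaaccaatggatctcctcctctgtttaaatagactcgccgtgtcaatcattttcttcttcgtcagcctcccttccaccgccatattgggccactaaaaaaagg
The CDKN1A window held 4 GC boxes, 2 of which share bases, and 29 CpG dinucleotides, and the CDKN1B window 1 GC box and 29 CpG dinucleotides. A GC box was present in 45.0% of 35116 promoter windows of the same length. CDKN1B also had 3 matches to CCAAT, a motif in 34.6% of windows, and CDKN1A had 0.

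CDKN1A had intensities of 109.5, 86.78 and 93.83 in SALL4 shRNA cultures, against 83.81, 66.37 and 73.14 in scrambled cultures. Each SALL4 shRNA array lay above the highest scrambled array, although SALL4 shRNA replicate 2 exceeded scrambled replicate 1 by little. The log2 difference was 0.38 ± 0.19 (SE), with a 95% interval from -0.03 to 0.79. On the fold scale that interval runs from 0.98 to 1.73. The difference did not pass (limma adjusted p = 0.342), and an exact permutation test (two-sided) gave p = 0.1, below which 3 arrays against 3 cannot go. Of all genes tested, 25.3% had a larger absolute change than CDKN1A.

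CDKN1B encodes p27, an inhibitor of cyclin E and cyclin A complexes with CDK2. It had intensities of 247.8, 155.3 and 207.9 in SALL4 shRNA cultures, against 259.9, 274.2 and 258.2 in scrambled cultures. The scrambled arrays lay close together, and the SALL4 shRNA arrays were spread, with replicate 2 the lowest. The mean was 204 ± 46.4 in SALL4 shRNA cultures and 264 ± 8.75 in scrambled cultures (SD, n = 3 each). This is a log2 difference of -0.40 ± 0.21 (SE) with a 95% interval from -0.85 to 0.05. It did not pass (limma adjusted p = 0.356), and the exact permutation p was 0.1. Without SALL4 shRNA replicate 2, the array that also stood apart on the second principal component, the log2 difference was -0.22 ± 0.20 (SE). Without that array and scrambled replicate 3 it was -0.23.

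CDKN1C encodes p57, the third CIP/KIP inhibitor, which is expressed from the maternal allele. It had intensities of 107.9, 125.0 and 103.8 in SALL4 shRNA cultures, against 157.3, 108.2 and 111.2 in scrambled cultures. Scrambled replicate 1 was high and the other 5 arrays lay between 103.8 and 125.0, so the groups overlapped. The log2 difference was -0.15 ± 0.20 (SE, 95% interval -0.59 to 0.30; limma adjusted p = 0.778), and without scrambled replicate 1 it was 0.03.

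Of the INK4 genes, CDKN2A encodes p16, which binds CDK4 and CDK6, and from an upstream first exon ARF, which binds MDM2 and so stabilises p53. The annotation of its 1 probe set lists transcripts of both kinds, so p16 and ARF cannot be told apart in these values. The windows at both starts are shown for that reason, with GC boxes in capitals.
CDKN2A, start of the p16 transcript, chr9:21974808-21975107, minus strand: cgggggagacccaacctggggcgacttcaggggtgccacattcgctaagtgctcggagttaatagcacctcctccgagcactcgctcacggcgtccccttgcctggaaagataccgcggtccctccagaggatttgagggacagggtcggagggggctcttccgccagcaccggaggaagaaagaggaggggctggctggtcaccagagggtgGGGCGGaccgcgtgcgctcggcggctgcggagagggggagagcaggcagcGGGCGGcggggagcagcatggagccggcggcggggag
CDKN2A, start of the ARF transcript, chr9:21995275-21995574, minus strand: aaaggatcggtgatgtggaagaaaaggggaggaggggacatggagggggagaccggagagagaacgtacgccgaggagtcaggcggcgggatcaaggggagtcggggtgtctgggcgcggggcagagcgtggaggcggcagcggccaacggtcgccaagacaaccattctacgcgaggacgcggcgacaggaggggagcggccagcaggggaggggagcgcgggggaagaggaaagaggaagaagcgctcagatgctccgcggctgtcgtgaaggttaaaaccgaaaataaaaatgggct
The p16 window held 2 GC boxes and the ARF window 0, with 26 and 28 CpG dinucleotides. Windows were taken for 5 of the 6 measured members, 2 for CDKN2A and 1 each for CDKN1A, CDKN1B, CDKN2B and CDKN2D, and CDKN1C was not searched. Of these 6 windows, 5 held a GC box, 2 held CCAAT and 0 held TATAAA, which 11.5% of all windows hold. AATATT, an AT-rich word of the kind that SALL4 zinc fingers bind, was in 1 of the 6, that of CDKN2B, and in 7.0% of all windows. TTCCCGC, part of an E2F site, was in 0 of the 6 and in 6.6% of all windows. Both strands were searched, and no match overlapped a match of another motif.

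CDKN2A had intensities of 101.6, 99.74 and 132.5 in SALL4 shRNA cultures, against 112.5, 143.8 and 120.0 in scrambled cultures. Of the SALL4 shRNA arrays, 2 lay below all scrambled arrays, and the third lay among them. The log2 difference was -0.18 ± 0.20 (SE, 95% interval -0.61 to 0.25; limma adjusted p = 0.711). CDKN2B, which encodes the TGF-beta-responsive inhibitor p15, had 130.7, 206.3 and 156.0 in SALL4 shRNA cultures, against 157.3, 169.0 and 140.2 in scrambled cultures. SALL4 shRNA cultures gave both the lowest and the highest array. Its log2 difference was 0.06 ± 0.21 (SE, 95% interval -0.40 to 0.51; limma adjusted p = 0.928), and -0.12 without SALL4 shRNA replicate 2.

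CDKN2D, which encodes p19, had 80.82, 74.85 and 76.77 in SALL4 shRNA cultures, against 99.37, 94.09 and 74.66 in scrambled cultures. The SALL4 shRNA arrays were close together, and scrambled replicate 3 lay below all 3 of them while the other 2 scrambled arrays lay above. The log2 difference was -0.20 ± 0.19 (SE, 95% interval -0.60 to 0.21; limma adjusted p = 0.649). Leaving out scrambled replicate 3 gave -0.32 and leaving out scrambled replicate 1 gave -0.11, neither of which passed.

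Across the family 2 of 6 changes were positive and 4 negative, with a median log2 change of -0.16, against 0.02 over all genes tested. The median absolute log2 change was 0.19 for the members and 0.22 for all genes. Standard errors of the members lay between 0.19 and 0.21, against a median of 0.21 over all genes. The smallest absolute log2 change among the 220 called genes was 0.79. The widest interval bounds of the members, 0.79 for CDKN1A and -0.85 for CDKN1B, reached that size, and those of CDKN1C, CDKN2A, CDKN2B and CDKN2D ended between -0.61 and 0.51.

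**Figure D2:**
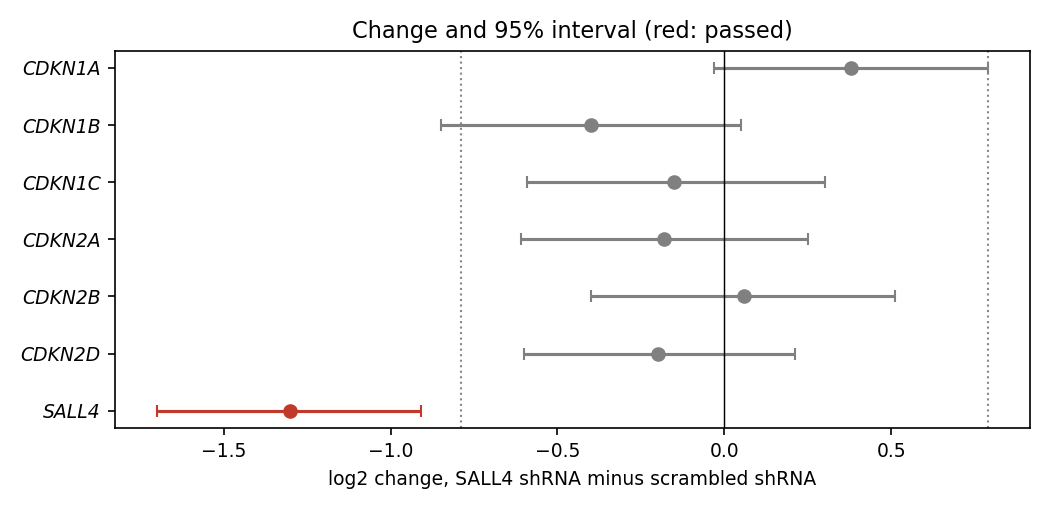
Log2 change (x axis, SALL4 shRNA minus scrambled shRNA) of the 6 measured CDK inhibitor genes and of SALL4, with 95% limma intervals from 3 arrays a group; dotted lines mark 0.79, the smallest absolute change among called genes. All 6 member intervals include 0, and that of SALL4 runs from -1.70 to -0.91.

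**Figure D3:**
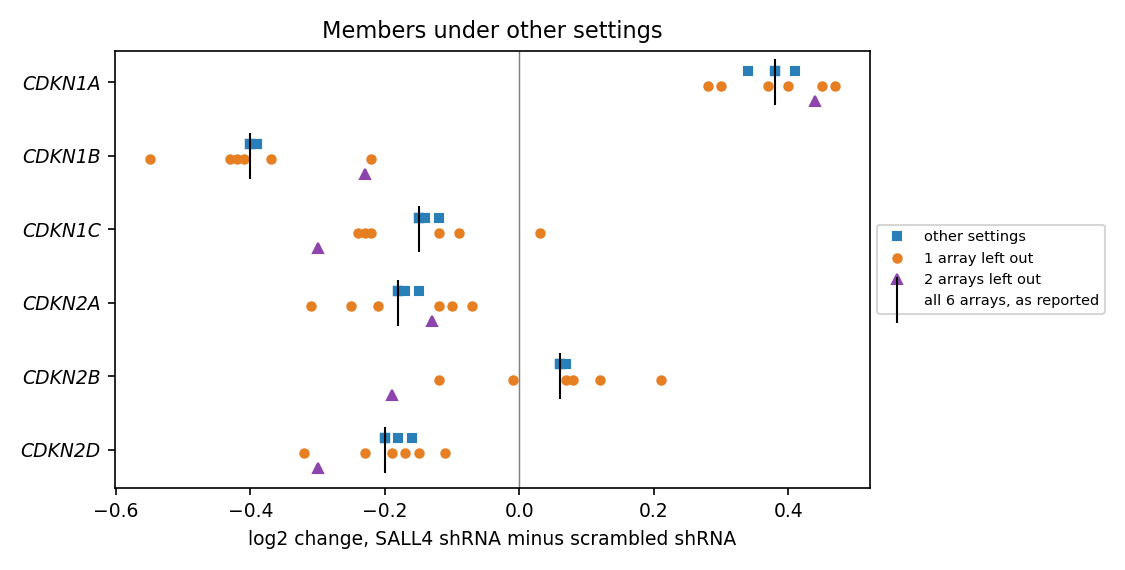
Log2 change of each measured CDK inhibitor gene (x axis) with all 6 arrays as reported (black bars), under the other settings that keep all arrays (blue squares), with 1 array left out (orange circles) and without scrambled replicate 3 and SALL4 shRNA replicate 2 (purple triangles). CDKN1A stays between 0.28 and 0.47 and CDKN1B between -0.55 and -0.22, while points of CDKN1C and CDKN2B lie on both sides of 0.

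Among the cyclin, CDK and CDC25 genes tested, 1 passed, a D-type cyclin that fell. CCND2, a partner of CDK4 and CDK6, had intensities of 879.9, 893.9 and 554.7 in SALL4 shRNA cultures, against 1815, 1565 and 2153 in scrambled cultures. The groups did not overlap, and CCND2 fell by 1.27 on the log2 scale (SE 0.23; limma adjusted p = 0.0239). It passed in 2 of the 6 fits that left out 1 array, those without SALL4 shRNA replicate 1 or 2, with adjusted p values up to 0.0785. The other D-type cyclins were near their scrambled levels, CCND1 at -0.06 ± 0.19 and CCND3 at -0.02 ± 0.21 (log2 difference ± SE). CDK4, CDK6 and CDK2 were at 0.23 ± 0.23, 0.16 ± 0.20 and -0.30 ± 0.23. CCNE1 was at -0.63 ± 0.34, CCNE2 at 0.05 ± 0.29 and CCNA2 at 0.05 ± 0.22. Of the 18 cyclin, CDK and CDC25 genes tested, 1 fell and 17 did not pass, where 1.65% of all genes were called. An unadjusted p under 0.05 was seen for 4, against 16.8% of all genes tested. Groups were separate in 6, against 22.2% of all genes tested. Changes were positive in 7 and negative in 11, with a median of -0.05.

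Downstream of the inhibitors, limma called 0 of the 17 genes of the RB and E2F families, with a median log2 change of -0.17. Of these 17, 4 had an unadjusted p under 0.05, against 16.8% of all genes tested. E2F3, an activating E2F, was at 194 ± 16.6 in SALL4 shRNA cultures and 303 ± 70.4 in scrambled cultures (SD, n = 3 each; limma adjusted p = 0.164). RBL1, the pocket protein p107, was at -0.59 ± 0.25 (log2 difference ± SE), and RB1 itself at 0.09 ± 0.20. Of 19 E2F target genes 1 fell and 18 did not pass, where 1.65% of all genes were called. An unadjusted p under 0.05 was seen for 3 of the 19, against 16.8% of all genes tested. Changes were positive in 5 and negative in 14, with a median of -0.25. The call was CDC6, a replication licensing factor, at 583.7, 546.1 and 410.6 in SALL4 shRNA cultures, against 942.9, 1031 and 846.5 in scrambled cultures. Its adjusted p was 0.0497 in limma, and it passed in none of the 6 fits without 1 array. Limma called 0 of the 10 proliferation markers. Of these 10, 1 had an unadjusted p under 0.05, against 16.8% of all genes tested. Their changes were positive in 2 and negative in 8, with a median of -0.19. PLK1, a mitotic kinase, was at -0.54 ± 0.21 and CCNB1 at -0.31 ± 0.18 (log2 difference ± SE).

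**Figure D4:**
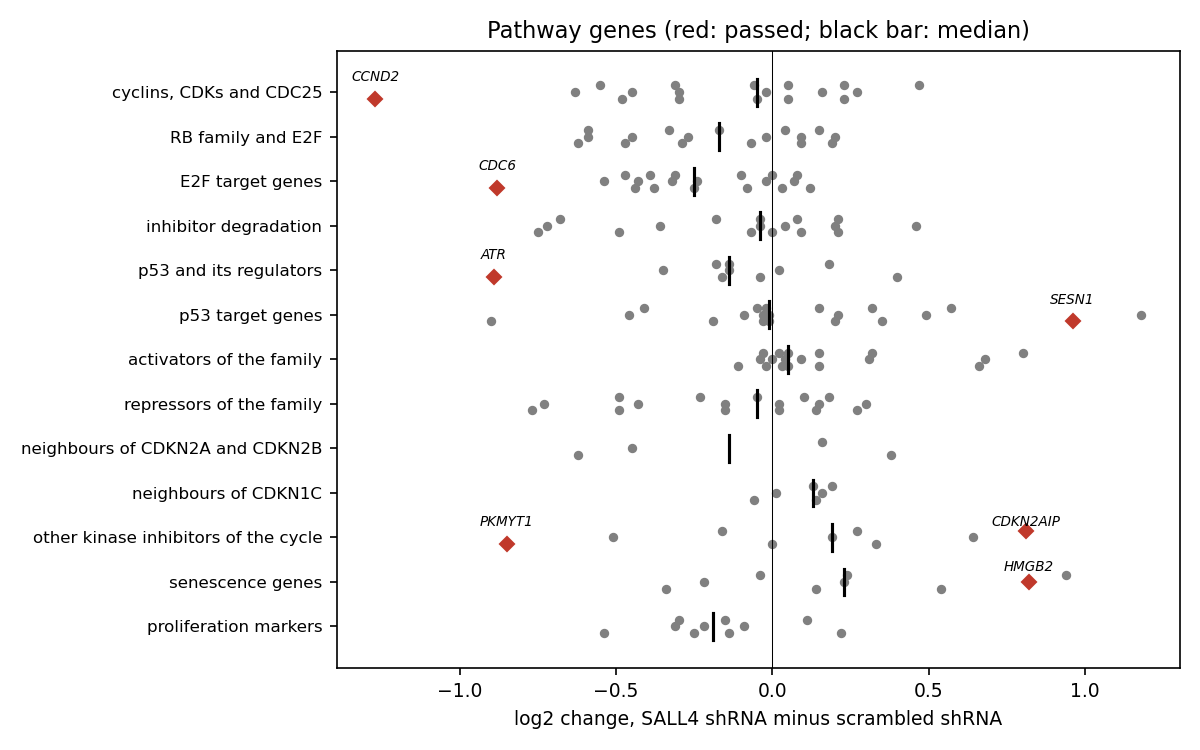
Log2 change (x axis, SALL4 shRNA minus scrambled shRNA) of each tested gene of the lists around the CDK inhibitors, 1 list a row; red diamonds passed limma at an adjusted p under 0.05, grey circles did not, and black bars mark the median of a list. Called genes are CCND2, CDC6, ATR, SESN1, PKMYT1, CDKN2AIP and HMGB2, and list medians lie between -0.25 and 0.23.

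Of the p53 pathway, which controls CDKN1A, 1 of 10 regulators and 1 of 20 further target genes passed, against 1.65% of all genes tested. ATR, a kinase of the replication stress checkpoint, had 138.2, 145.4 and 160.5 in SALL4 shRNA cultures, against 266.4, 278.1 and 274.4 in scrambled cultures. It fell by 0.89 on the log2 scale (SE 0.18; limma adjusted p = 0.0316). SESN1, a p53 target that restrains mTORC1, rose to 404 ± 57.8 in SALL4 shRNA cultures, against 208 ± 24.5 in scrambled cultures (SD, n = 3 each; limma adjusted p = 0.0332). Both passed in none of the 6 fits without 1 array. Of the 10 regulators 1 had an unadjusted p under 0.05, with 3 positive and 7 negative changes. Of the 20 target genes 6 had one, against 16.8% of all genes tested. Their changes were positive in 9 and negative in 11 of the 20, with a median log2 change of -0.01.

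Genes for other regulators of the family did not pass limma, and 3 of 18 activators, 4 of 17 repressors and 5 of 17 degradation genes had an unadjusted p under 0.05, against 16.8% of all genes tested. Of the 18 transcriptional activators, 13 were positive and 5 negative, with a median of 0.05. KDM6B, a histone H3 lysine 27 demethylase that acts at the CDKN2A locus, was at 271 ± 7.78 in SALL4 shRNA cultures and 157 ± 22.5 in scrambled cultures (SD, n = 3 each; limma adjusted p = 0.0551). ETS1, an activator of CDKN2A, was at 0.68 ± 0.20 (log2 difference ± SE). Of 17 repressors, 8 were positive and 9 negative, with a median of -0.05. The deacetylase gene HDAC1 was at -0.77 ± 0.19 and GFI1, a repressor of CDKN1A, at -0.73 ± 0.18. Of 17 genes of inhibitor degradation, SKP2, which recruits p27 to its ubiquitin ligase, had 400.2, 281.3 and 369.0 in SALL4 shRNA cultures, against 644.5, 571.0 and 535.2 in scrambled cultures. The groups did not overlap, with a log2 difference of -0.75 ± 0.20 (SE; limma adjusted p = 0.0767). CKS2, whose close relative CKS1B is the SKP2 cofactor, was at -0.68 ± 0.20 and CKS1B at -0.04 ± 0.18; the median of the list was -0.04. With limma's trend and robust settings SKP2, CKS2, HDAC1 and KDM6B passed, and HDAC1 and KDM6B also with 8 added to each intensity.

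At the chromosome 9 locus, the neighbours of CDKN2A and CDKN2B were measured in part above the floor. Of the 4 in the fit, 0 passed limma. An unadjusted p under 0.05 was seen for 1 of the 4, MTAP, against 16.8% of all genes tested. MTAP, a methionine salvage gene beside CDKN2A, had 75.44, 98.95 and 74.05 in SALL4 shRNA cultures, against 130.1, 129.8 and 119.4 in scrambled cultures. These groups did not overlap, with a log2 difference of -0.62 ± 0.19 (SE; limma adjusted p = 0.117). CDKN2A-AS1, a noncoding gene beside CDKN2A that was named after its values were seen, had 35.94, 30.13 and 33.58 in SALL4 shRNA cultures, against 43.95, 50.55 and 40.16 in scrambled cultures (log2 difference -0.43 ± 0.19, SE; limma adjusted p = 0.266). Farther away MLLT3 was at -0.45 ± 0.25, DMRTA1 at 0.38 ± 0.22 and KLHL9 at 0.16 ± 0.23. The interferon genes IFNE and IFNB1 were at the floor on all 6 arrays, and ELAVL2 lay between 14.00 and 24.74, under the filter. Around CDKN1C on chromosome 11, the 6 measured neighbours KCNQ1 (0.01), PHLDA2 (0.16), NAP1L4 (0.13), CARS1 (0.19), TSSC4 (-0.06) and CD81 (0.14) had log2 differences no larger than 0.19. Of these 6, limma called 0, with 0 at an unadjusted p under 0.05.

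Of 9 genes that bear on cell cycle kinases by other routes, 1 rose, 1 fell and 7 did not pass. Of all genes tested, 1.65% were called. An unadjusted p under 0.05 was seen for 3 of the 9, against 16.8% of all genes tested. Groups were separate in 3 of the 9, against 22.2% of all genes tested. CDKN2AIP, which encodes the ARF-binding protein CARF, had 341.3, 367.3 and 431.2 in SALL4 shRNA cultures, against 208.4, 231.4 and 207.9 in scrambled cultures. The groups did not overlap, and CDKN2AIP rose by 0.81 ± 0.18 on the log2 scale (SE; limma adjusted p = 0.0497). PKMYT1, a kinase that inhibits CDK1 by phosphorylation, fell to 47.7 ± 6.5 in SALL4 shRNA cultures, against 85.5 ± 5.67 in scrambled cultures (SD, n = 3 each; limma adjusted p = 0.0457). WEE1, which phosphorylates CDK1 as well, was at 0.64 ± 0.21 (limma adjusted p = 0.133), and CDKN3, a phosphatase in spite of its symbol, at -0.16 ± 0.25 (log2 difference ± SE). Of the 9 senescence genes tested 1 rose, where 1.65% of all genes were called. It was HMGB2, a chromatin protein that is known to be lost in senescence, at 1281, 1301 and 1526 in SALL4 shRNA cultures and 836.4, 781.0 and 707.6 in scrambled cultures (limma adjusted p = 0.0474). Of the 9 senescence genes, 3 had an unadjusted p under 0.05, against 16.8% of all genes tested, with 6 positive and 3 negative changes. MMP1 was at 0.94 ± 0.23, GLB1 at 0.54 ± 0.18 and LMNB1 at -0.34 ± 0.18 (log2 difference ± SE), and these did not pass. They were named after their values were seen. The remaining tested genes of this list did not pass either. HMGA1 was at -0.04 ± 0.19, IGFBP7 at -0.22 ± 0.19, IGFBP3 at 0.14 ± 0.18, CXCL8 at 0.23 ± 0.28 and CCL2 at 0.24 ± 0.35. None of CDKN2AIP, PKMYT1 and HMGB2 passed in any fit without 1 array. Of 192 genes in all lists besides the members, 8 passed (4.17%, against 1.65% of all genes tested), 3 that rose and 5 that fell, the eighth being the fibroblast marker DCN (-1.25 ± 0.21). The lists were chosen with earlier results of these data known, so these shares give no independent comparison. With 1 array left out, 0 to 2 of the 192 passed. The 6 fibroblast markers went both ways, with 3 positive and 3 negative changes and a median log2 change of 0.12. COL1A2 was at 0.50 ± 0.20 and COL3A1 at -0.54 ± 0.20 (log2 difference ± SE), and both did not pass. Summed over the 6 fibroblast markers, intensity ranged from 1006 to 1368 in SALL4 shRNA cultures and from 1286 to 1444 in scrambled cultures. The part of fibroblast marker signal in these results was not tested.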

How the data were processed

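The authors deposited 1 table of linear probe set intensities for 6 arrays; RMA is named in the submitters' processing notes, and its version, any later steps and the genome build are not stated in these sources. The lowest deposited intensity is 10, so a gene there has only an upper bound. Log2 was taken here, since the planned test was on log2 intensity. Of 32319 probe sets, 19158 have 1 gene symbol, 1388 several and 11773 are not listed in the platform annotation. For the 19128 probe sets whose Entrez identifier matched RefSeq, the RefSeq symbol was used. The brightest probe set was taken for each of 18404 genes. No value column was left unused. Changes, SALL4 shRNA minus scrambled, were fitted with limma 3.58.1 in R 4.3.3, two-sided, with Benjamini-Hochberg adjustment over all genes fitted; the filter ignores the groups. Exact permutation tests used scipy 1.17.1. The number of arrays limits the precision. Replicate numbers are shared between groups, but deviations of same-numbered arrays did not go together (correlations 0.000372, -0.0854 and -0.0411), so the fit has no block. Members, lists and the filter were chosen with earlier results of these data known. Named are all members, SALL4, list genes that passed, otherwise the 2 with the lowest p, all measured neighbours, and a few genes marked or given as context (CCND1, CCND3, CDK2, CDK4, CDK6, RB1, CKS1B, WEE1, CDKN3, the markers ALB, AFP, GPC3, PTPRC, LYZ, CD3E, CD14 and HBB, and genes called only under another setting) after their values were seen. Also named after their values were seen are CCNE1, CCNE2, CCNA2, MMP1, GLB1, LMNB1, COL1A2 and COL3A1. So are EPCAM and the senescence genes HMGA1, IGFBP3, IGFBP7, CXCL8 and CCL2.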

Additional observations from a re-analysis of the deposited data

How the results depend on the processing

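No setting called any of the 6 members, and CDKN1A, CDKN1B, CDKN2A and CDKN2D kept their sign in every setting tried. With 1 array left out, log2 changes ranged from 0.28 to 0.47 for CDKN1A, -0.55 to -0.22 for CDKN1B, -0.24 to 0.03 for CDKN1C, -0.31 to -0.07 for CDKN2A, -0.12 to 0.21 for CDKN2B and -0.32 to -0.11 for CDKN2D. CDKN2B was at -0.19 and CDKN1C at -0.30 without scrambled replicate 3 and SALL4 shRNA replicate 2 together, a setting chosen after seeing the data; the cause was not tested. SALL4 ranged from -1.37 to -1.20 with 1 array left out and passed each time. It kept -1.30 but did not pass limma without the filter (adjusted p 0.0946) or with all probe sets fitted (-1.30, 0.0544), and had -1.20 (0.0685) without those 2 arrays. The count of 220 genes called was 0 without the filter, 486 with trend and robust settings, 7 with all probe sets fitted, 339 with 8 added to each intensity, 37 to 97 with 1 array left out and 20 without the 2 arrays. The replicate block gave 37 calls, and arrays share only a number. Of list genes 8 were called, against 0 without the filter, 0 with all probe sets, 0 with the replicate block, 14 with trend and robust settings (CKS2, HDAC1, KDM6B, MMP1, SKP2 and XPC were added), 0 to 2 with 1 array left out and 1 without the 2 arrays. The 1 list gene called without the 2 arrays was TP53INP1, a p53 target that rose and is not among the 8. With all 6 arrays TP53INP1 was at 1.18 ± 0.38 (log2 difference ± SE) and did not pass (limma adjusted p = 0.133). Fewer arrays leave fewer degrees of freedom. The other settings, quantile normalization, a filter by group and the mean of probe sets, moved no call of a member or of SALL4. Of the 8 list genes, PKMYT1 did not pass with quantile normalization (7 called) and CDC6 and CDKN2AIP did not with the filter by group (6 called); the mean of probe sets called all 8.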

Other observations

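The genes whose log2 intensity followed each member most closely over the 6 arrays were looked up as a description among the 13325 genes tested. For CDKN1A they were PDE6D (Pearson r = 0.996), LRCH3 (0.990) and ZFP37 (0.987), and for CDKN1B they were ARHGAP4 (0.997), DNAJC2 (0.996) and OCRL (0.992). For CDKN1C they were REXO4 (0.978), MRPS26 (0.978) and NUMA1 (0.973). For CDKN2A they were COMP (0.992), HLA-DOA (0.986) and ANKRD10 (0.985), for CDKN2B ITGBL1 (0.996), MED7 (0.992) and WDR6 (0.991), and for CDKN2D ACTR5 (0.992), RNF166 (0.991) and MMP17 (0.990). The 6 arrays hold both groups, and from 11 genes for CDKN1C to 85 for CDKN1B had an r over 0.95, so single names carry little weight. None of these 18 genes passed limma, with adjusted p values from 0.175 to 0.91.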
